A study of Mus musculus with 16 samples.

Results

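Potassium channel genes were examined in intervertebral disc tissue of mice that lost Sox9, with Kcnip3 at the centre. The genes were taken from the deposited array table by symbol (Kcn, a family letter or letters, then a number), with 1 probe set a gene, which gave 89 Kcn genes of 19505 genes with a symbol. Of these, 6 are described by name: Kcnk2, Kcnk10, Kcnq5, Kcng1 and Kcnmb3 had a mean log2 signal of at least 8 in at least 1 of the 4 groups of arrays, and Kcnip3, which also had one, was named because it was lower without Sox9 in both disc compartments. The other 83 genes are counted, and named where they passed a test or complete a complex. Among them is Kcnq1ot1, an RNA rather than a channel gene, which the symbol rule takes in and the counts of 89 include. The level of 8 is a convention: Kcnk10 lay just inside it with a highest group mean of 8.05, and Kcnk5 with 7.89, Kcnip4 with 7.85 and Kcnmb1 with 7.67 lay just outside.

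The study measured total RNA on 1-colour Affymetrix arrays from 16 tissue samples of 8 female mice, aged 3 to 4 months at sampling by the labels. The conditional knockout (cKO) carries AcanCreERT2 and Sox9fl/fl, and received tamoxifen on 2 consecutive days. The control (CTR) is Sox9fl/fl. Both have floxed Sox9, the labels name no Cre and no injection for CTR, and so tamoxifen, Cre and the loss of Sox9 cannot be told apart between them. The Acan promoter limits deletion to cells that express aggrecan, and tissue was taken on day 5 after the first injection. The nucleus pulposus (NP), the gel-like core of the disc, and the annulus fibrosus (AF), the fibrous ring around it, were dissected from lumbar and caudal discs of each animal. This gave 4 arrays each of NP cKO, NP CTR, AF cKO and AF CTR, with NP and AF from the same animals.

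Potassium channels let potassium leave the cell and so set the resting potential and limit excitation. Voltage-gated pores (Kv), calcium-activated pores, inward rectifiers and tandem-pore (K2P) leak channels are the main classes, and many pores work only with auxiliary subunits. Kcnip3 encodes an EF-hand calcium sensor of the KChIP family, known under the names KChIP3, DREAM and calsenilin: it binds Kv4 pores at the membrane, presenilins in the cell, and in the nucleus a DNA element downstream of the start of genes such as prodynorphin. Disc cells live in a matrix whose fixed charge concentrates cations, so that ion and volume control are among their main tasks.

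Promoter sequences are shown for Kcnip3, whose level differed between genotypes, and for Kcnq5, the other described gene with a match to the motif searched. The windows are RefSeq's on GRCm38.p6, each 300 bases long, mostly before an annotated start, written 5′ to 3′ on the gene's strand, and capitals mark ACAAT or its reverse complement ATTGT, the core that SOX proteins recognise. Kcnip3 has 3 windows, all on the minus strand: chr2:127482450-127482749, chr2:127521343-127521642 and chr2:127522045-127522344. The Kcnq5 window with matches is chr1:21962601-21962900, also on the minus strand.
Kcnip3 window at 127482450: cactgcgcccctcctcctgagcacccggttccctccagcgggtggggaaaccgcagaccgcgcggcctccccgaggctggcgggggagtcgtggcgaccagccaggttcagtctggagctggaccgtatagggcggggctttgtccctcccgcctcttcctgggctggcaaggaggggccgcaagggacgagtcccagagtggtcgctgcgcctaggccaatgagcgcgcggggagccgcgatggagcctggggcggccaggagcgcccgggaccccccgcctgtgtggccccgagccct
Kcnip3 window at 127521343: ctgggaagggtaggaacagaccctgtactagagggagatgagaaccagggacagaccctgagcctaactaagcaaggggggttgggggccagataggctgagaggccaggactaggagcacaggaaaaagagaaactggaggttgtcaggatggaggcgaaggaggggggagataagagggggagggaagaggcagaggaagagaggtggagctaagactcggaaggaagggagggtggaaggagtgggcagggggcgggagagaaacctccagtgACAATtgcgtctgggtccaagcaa
Kcnip3 window at 127522045: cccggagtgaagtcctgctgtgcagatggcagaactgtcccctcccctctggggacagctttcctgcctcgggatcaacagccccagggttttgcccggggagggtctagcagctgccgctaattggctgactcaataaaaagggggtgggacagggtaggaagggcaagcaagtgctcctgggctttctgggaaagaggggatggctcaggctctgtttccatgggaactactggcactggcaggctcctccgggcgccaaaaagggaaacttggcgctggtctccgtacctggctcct
Kcnq5 window at 21962601: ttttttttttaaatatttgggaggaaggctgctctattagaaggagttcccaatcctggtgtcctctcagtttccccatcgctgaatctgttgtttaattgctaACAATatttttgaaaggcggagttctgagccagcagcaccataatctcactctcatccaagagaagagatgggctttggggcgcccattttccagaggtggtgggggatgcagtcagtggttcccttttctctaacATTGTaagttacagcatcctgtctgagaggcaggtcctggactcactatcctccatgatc
Of the 3 Kcnip3 windows 1 held a single ACAAT, whose first base lies at position 27 counted from 1 at the start. Kcnq5 held 2 matches in 1 of its 2 windows. Windows of this kind were found for 5 of the 6 described genes, 12 windows in all, and the other 3 genes had none of these letters in theirs. For comparison, ACAAT on either strand stood in 31.0% of 32851 windows of all genes and in 19 of 93 windows (20.4%) of the 68 Kcn genes that have one. The longer form ACAATGG (reverse CCATTGT), which contains ACAAT, stood in 3.66% of all windows and in none of the 12. A match is a description of letters, not of binding.

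The targeted gene was checked first. Sox9 had a log2 signal of 9.55 to 10.12 in NP cKO arrays against 15.95 to 16.79 in NP CTR arrays, and of 11.43 to 12.99 in AF cKO arrays against 16.39 to 17.45 in AF CTR arrays, so the groups did not overlap and every library matched its genotype label. The NP marker Krt19 averaged 18.18 in NP cKO and 18.09 in NP CTR, against 16.57 in AF cKO and 15.92 in AF CTR, and the collagen gene Col1a1 averaged 9.12 in NP CTR against 17.22 in AF CTR. Not all NP markers went that way. Of 7 notochord and NP markers, 4 were called higher and 1 lower in control NP, where 9.96% and 10.1% of all probe sets were. Foxa2 was at or under the negative controls in every group. The mean of the 7 was 11.7 to 12.1 on NP arrays and 10.4 to 11.5 on AF arrays. Signal is on a log2 scale on which 1 unit is a doubling, and levels of different probe sets cannot be set against each other. As a gauge of background, the median of 5222 negative control probe sets was 6.14 to 6.59 on each array. Of the 89 Kcn genes, 30 had a group mean over 6.59 in at least 1 group, 14 had one in all 4 groups, and 59 had one in none, so most Kcn genes were too dim here to be separated from background. The level of 8 is no guarantee of detection either, since 24.7% of the negative control probe sets had a group mean that high. The number of arrays, 4 a group, limits the precision.

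Kcnip3 was the 1 Kcn gene with large differences in both compartments. Its log2 signal was 6.82, 6.33, 6.39 and 6.45 in the 4 NP cKO arrays, against 9.70, 9.92, 10.70 and 9.5 in the 4 NP CTR arrays. It was 7.10, 7.39, 6.78 and 6.04 in the AF cKO arrays, against 8.65, 10.17, 10.13 and 9.87 in the AF CTR arrays. All cKO arrays were low and all CTR arrays high in both tissues, and the groups did not overlap: the lowest NP CTR array lay 2.68 log2 units above the highest NP cKO array, and the lowest AF CTR array 1.26 above the highest AF cKO array. The means were 6.50 ± 0.22 in NP cKO and 9.95 ± 0.52 in NP CTR, a difference of -3.46 (SE 0.34), and 6.83 ± 0.58 in AF cKO and 9.71 ± 0.72 in AF CTR, a difference of -2.88 (SE 0.34) (SD, n = 4 each). These differences chose the gene, so they are given as a description with no test.

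In cKO tissue the Kcnip3 signal lay near the level of the negative controls. Of the NP cKO arrays 3 of 4, and of the AF cKO arrays 1 of 4, lay at or under the median of the negative controls on the same array. With each such value raised to that median, signal was 10.6-fold lower in NP cKO than in NP CTR, and 6.87-fold lower in AF cKO than in AF CTR. These folds are no lower bound, since the median is not a detection limit. On each array 15.6% to 23.6% of the negative control probe sets lay at 8 or higher. In bulk tissue, fewer cells of a type and less RNA per cell cannot be told apart. Of the AF CTR arrays, replicate 1 had the lowest Kcnip3 (8.65); the same array had the highest mean log2 signal of that group for 10 neutrophil markers (11.8, against 6.55 to 8.13 on the other 3) and for 12 cartilage markers (13.9, against 11 to 12.7), and the part of either in its Kcnip3 value was not tested. Without it the AF difference was -3.23.

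The compartments themselves were not separated by Kcnip3. The difference between its NP and AF changes was -0.58 (SE 0.48), with a limma adjusted p of 0.805. In controls, NP was 0.25 above AF (SE 0.34), with a limma adjusted p of 0.653, and the 2 groups of arrays overlapped. Neither comparison was used to choose the gene. The sign of the second turned to -0.10 without AF CTR replicate 1.

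**Figure D1:**
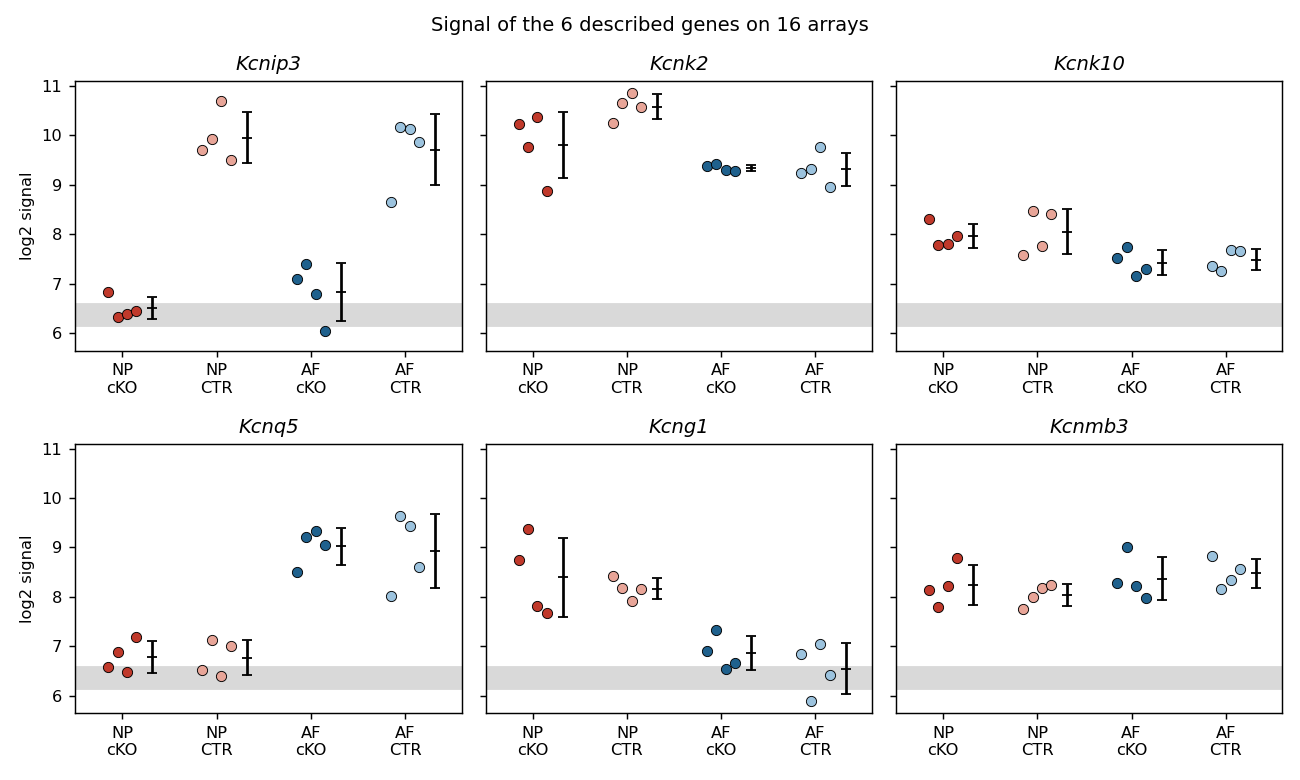
Log2 signal (y axis) of the 6 described Kcn genes on each of 16 arrays (points), by group (x axis), with the mean and SD of each group (bars, n = 4); the grey band spans the negative control medians, 6.14 to 6.59. Kcnip3 sits at 6.04 to 7.39 on the cKO arrays and at 8.65 to 10.70 on the CTR arrays, while the other genes have overlapping cKO and CTR arrays within each tissue.

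Across the whole family, Kcnip3 was the only gene that passed the test between genotypes. In NP, 1 of 89 Kcn genes passed (limma, Benjamini-Hochberg adjusted p under 0.05 over 22206 probe sets), where 0.122% of all probe sets did. In AF it was again 1 of 89, where 0.0991% of all probe sets did. That gene is the one the rule names, so nothing is read from these counts beyond the absence of calls for the other genes. The median change was 0.03 in NP, against 0.00 over all probe sets, and -0.08 in AF, against -0.03 over all probe sets. At an unadjusted p under 0.05, 6 Kcn genes differed in NP (2 higher and 4 lower in cKO), 6.74% against 4.58% of all probe sets. In AF 6 differed (1 higher and 5 lower in cKO), 6.74% against 10.6% of all probe sets. Kcnip3 was among them in both. Over all probe sets, 395 were higher and 623 lower in NP cKO, and 1096 higher and 1263 lower in AF cKO, at that level. For the difference between the NP and AF changes, 0 of 89 Kcn genes and 0% of all probe sets passed with limma. At an unadjusted p under 0.05 there were 7 Kcn genes (7.87%) and 1496 probe sets (6.74%).

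**Figure D2:**
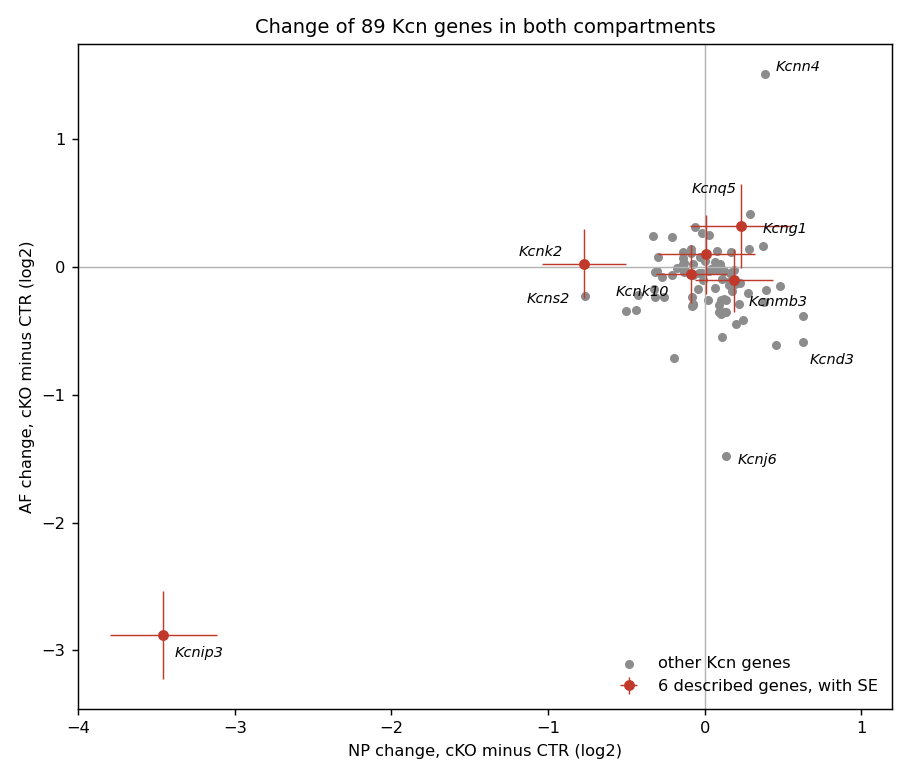
Change in NP (x axis) against change in AF (y axis), each cKO minus CTR in log2 units, for 89 Kcn genes (points); the 6 described genes carry the SE of both changes. Kcnip3 lies alone at -3.46 in NP and -2.88 in AF, and Kcnn4 (1.51) and Kcnj6 (-1.48) lie apart along the AF axis.

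None of the other KChIP and Kv4 genes passed the test between genotypes. The KChIP gene Kcnip4 had a log2 signal of 6.94, 6.18, 6.83 and 6.84 in NP cKO, against 6.35, 6.16, 6.84 and 7.07 in NP CTR. In AF it had 7.65, 7.25, 7.46 and 7.61 in cKO, against 7.82, 8.13, 7.80 and 7.63 in CTR. The AF arrays lay above the NP arrays of the same genotype, and the control NP minus control AF difference was -1.24 (SE 0.23), with a limma adjusted p of 7.2e-04. The genotype difference of Kcnip4 was 0.09 (SE 0.23) in NP and -0.36 (SE 0.23) in AF, and neither passed.

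Kcnip1 and Kcnip2, the remaining KChIP genes, lay below the negative control medians in all 4 groups. Kcnip1 was 0.63 higher in NP cKO than in NP CTR (SE 0.20, 5.76 ± 0.26 against 5.13 ± 0.14, n = 4 each), which did not pass (limma adjusted p 0.631). In AF it differed by -0.38 (SE 0.20, limma adjusted p 0.510). The difference between its changes was 1.01 (SE 0.28, limma unadjusted p 0.0022 and adjusted p 0.732) and did not pass either. Kcnip2 differed by -0.21 (SE 0.23) in NP and 0.24 (SE 0.23) in AF. Of the Kv4 pores to which KChIPs bind, Kcnd1 was the one with means over the negative controls, at 6.94 ± 0.43 in NP cKO and 7.44 ± 0.15 in NP CTR, a difference of -0.50 (SE 0.27; limma adjusted p 0.99997). In AF Kcnd1 differed by -0.35 (SE 0.27, limma adjusted p 0.671). Kcnd3 was dim, with a difference of 0.63 (SE 0.23) in NP and -0.59 (SE 0.23) in AF. These opposite signs gave a difference between the changes of 1.21 (SE 0.32), unadjusted p 0.00136 and limma adjusted p 0.732, so it did not pass. Kcnd2, dim as well, differed by -0.14 (SE 0.22) in NP and 0.07 (SE 0.22) in AF.

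Kcnk2 encodes TREK-1, a K2P leak channel that opens with membrane stretch, heat and lipids. Its log2 signal was 10.22, 9.76, 10.37 and 8.87 in NP cKO, against 10.24, 10.65, 10.85 and 10.57 in NP CTR. In AF it was 9.37, 9.42, 9.29 and 9.28 in cKO, against 9.23, 9.32, 9.76 and 8.96 in CTR. Control NP stood above control AF on every array, by 1.26 on average (SE 0.27; limma adjusted p 0.00261). Within NP, the highest cKO array lay above the lowest CTR array, and the difference of -0.77 (SE 0.27) did not pass (unadjusted p 0.0102, limma adjusted p 0.757). NP cKO replicate 4 was the low one: without it the difference was -0.46. The same array had the highest mean log2 signal of 9 annulus and tendon markers among NP arrays, 9.37, against 7.96 to 8.75 on the other NP cKO arrays and 7.72 to 8.53 on NP CTR arrays; the defining tendon genes Scx, Tnmd and Mkx had means at or under the negative controls in both NP groups, and the part of this in Kcnk2 was not tested. In AF Kcnk2 differed by 0.03 (SE 0.27).

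Kcnk10 encodes TREK-2, a close relative of TREK-1. It had 8.30, 7.78, 7.80 and 7.97 in NP cKO, against 7.57, 8.46, 7.76 and 8.40 in NP CTR. AF arrays had 7.52, 7.74, 7.15 and 7.29 in cKO, against 7.36, 7.25, 7.67 and 7.66 in CTR. The genotypes overlapped in both tissues, with differences of -0.08 (SE 0.23) in NP and -0.06 (SE 0.23) in AF. Control NP was 0.57 above control AF (SE 0.23), a description as well, since Kcnk10 reached the level of 8 only through NP CTR.

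Kcnq5 encodes a Kv7 pore, part of the slow M-type current known in neurons and in vascular and skeletal muscle. It had 6.58, 6.89, 6.48 and 7.18 in NP cKO, against 6.53, 7.13, 6.40 and 7.01 in NP CTR, near the negative controls. In AF it had 8.50, 9.21, 9.33 and 9.05 in cKO, against 8.02, 9.64, 9.43 and 8.60 in CTR. All 8 AF arrays thus lay above all 8 NP arrays, and the control NP minus control AF difference was -2.15 (SE 0.31). Kcnq5 reached the level of 8 only through its AF groups, so this difference is a description with no test. The genotype differences were 0.01 (SE 0.31) in NP and 0.10 (SE 0.31) in AF. Skeletal muscle markers averaged 9.81 and 9.25 on AF cKO replicates 2 and 4, against 6.41 and 6.89 on the other AF cKO arrays and 6.40 to 7.20 on AF CTR arrays. Kcnq5 was 9.21 and 9.05 on those 2 AF cKO arrays and 8.50 and 9.33 on the other AF cKO arrays, and the part of muscle in its AF signal was not tested.

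Kcng1 encodes an electrically silent Kv subunit, which forms no channel alone and modifies Kv2 pores. It had 8.74, 9.37, 7.81 and 7.68 in NP cKO, against 8.43, 8.17, 7.92 and 8.15 in NP CTR, and 6.91, 7.33, 6.55 and 6.67 in AF cKO, against 6.85, 5.89, 7.04 and 6.42 in AF CTR. NP cKO arrays were spread more widely (SD 0.80) than NP CTR arrays (SD 0.21), and the genotypes overlapped. Control NP was 1.62 above control AF (SE 0.33), and all 8 NP arrays lay above all 8 AF arrays. Kcng1 reached the level of 8 only through its NP groups, so this too is a description.

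Kcnmb3 encodes a beta subunit of the large-conductance calcium-activated BK channel. Its log2 signal was 8.13, 7.80, 8.22 and 8.78 in NP cKO, against 7.75, 8.0, 8.17 and 8.25 in NP CTR. In AF it was 8.29, 9.0, 8.21 and 7.98 in cKO, against 8.82, 8.16, 8.34 and 8.57 in CTR. It was the flattest of the 6 described genes: group means ran between 8.04 and 8.47, and no comparison passed, with 0.19 (SE 0.25) in NP, -0.10 (SE 0.25) in AF and -0.43 (SE 0.25; limma adjusted p 0.238) between control NP and control AF. Of its relatives, Kcnmb1, the beta subunit known from smooth muscle, was 0.83 higher in control NP than in control AF (SE 0.22; 7.67 ± 0.32 against 6.84 ± 0.18, n = 4 each; limma adjusted p 0.0109).

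Between the compartments of control discs, many more Kcn genes differed than between genotypes. Of 89 Kcn genes 26 passed in NP minus AF, where 20.1% of all probe sets did; 15 were higher in NP, where 9.96% of all probe sets were, and 11 were lower in NP, where 10.1% of all probe sets were. As shares of the 89 these are 29.2%, 16.9% and 12.4%. The median difference of the Kcn genes was 0.11, against 0.04 over all probe sets. Of the 26, 14 (11 higher and 3 lower in NP) had no group mean over the negative control medians, so their levels cannot be separated from background. Among 9030 equally dim probe sets 7.77% were called higher and 5.89% lower in NP. Of the 30 Kcn genes with a group mean over background, 4 were called higher (13.3%) and 8 lower (26.7%) in NP, where 11.5% and 13.0% of 13176 probe sets as bright were. A gene enters both of these sets through any 1 group, also through the tissue where it is higher. Kcna6 and Kcnj6, for example, entered only through AF CTR. The split by brightness is therefore a description.

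The calls are given by channel class, with no test between classes. Over all probe sets, 9.96% were called higher and 10.1% lower in NP. The classes are small, so no trait of a class is read from the counts. Of 10 electrically silent Kv subunits, 5 were higher in NP and 0 lower: besides Kcng1, Kcnf1 was 1.18 higher (SE 0.28; 6.88 ± 0.15 in NP CTR against 5.70 ± 0.69 in AF CTR, n = 4 each; limma adjusted p 0.00508), and the dim genes Kcns2, Kcnv2 and Kcng3 were 1.01, 1.23 and 0.61 higher. The Kcng3 call was lost with the animal as a block (limma adjusted p 0.0504) and in 10 of 18 alternatives in all. Of 15 inward rectifiers, 0 were higher and 2 lower in NP. Kcnj8, the pore of the ATP-sensitive channel of vascular smooth muscle, had 4.79, 5.19, 5.56 and 5.70 in NP CTR, against 7.54, 6.64, 6.57 and 6.42 in AF CTR (-1.48, SE 0.30; limma adjusted p 0.00168). Of 8 pericyte and smooth muscle markers, 3 were lower in control NP and 0 higher, beside the same shares over all probe sets: Rgs5 by -3.39, Pdgfrb by -3.07 and Cspg4 by -2.19. The smooth muscle genes Acta2 (1.27), Tagln (1.06), Myh11 (0.66) and Cnn1 (0.03) had positive NP minus AF differences and Notch3 a negative one (-0.46), none of which passed. The mean of the list was 7.81 to 8.15 in NP CTR against 8.40 to 9.14 in AF CTR. Of 9 endothelial markers 7 were called lower in NP, where 10.1% of all probe sets were. The part of these cells in the Kcnj8 difference was not tested. Kcnj6, a G protein-gated inward rectifier, had a difference of -1.66 (SE 0.39; limma adjusted p 0.00512).

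In most other classes calls went both ways or were few, beside 9.96% of all probe sets called higher and 10.1% called lower in NP. Of 15 Kv1 to Kv4 pores 3 were higher and 1 lower in control NP, of 8 EAG, ERG and ELK pores 1 was higher and 1 lower, of 14 K2P channels 2 were higher and 2 lower, and of 16 auxiliary subunits 4 were higher and 2 lower. Of 7 calcium-, sodium- and pH-activated channels 0 were higher and 2 lower, and of 3 Kv7 pores 0 were higher and 1 lower. Kcna6, a Shaker-type Kv pore, had 4.55, 5.15, 5.30 and 4.14 in NP CTR, against 8.21, 8.13, 6.37 and 6.12 in AF CTR (-2.43, SE 0.46; limma adjusted p 9.2e-04). Kcnn3, a small-conductance calcium-activated channel, had a difference of -1.33 (SE 0.25; limma adjusted p 9.6e-04), and Kcnh2, the ERG pore of heart muscle, of -1.02 (SE 0.22; limma adjusted p 0.00233). Kcnh7, an ERG pore too and a dim gene, went the other way, 0.93 higher in NP (SE 0.24; limma adjusted p 0.0103). The 2 AF CTR arrays with the highest Kcna6, replicates 1 and 2, also had the highest means of 7 Schwann cell markers in that group (9.06 and 7.83, against 7.25 and 7.52 on the others). That mean was 7.28 to 7.60 on NP CTR arrays. Of the 7 markers, 1 was called higher and 1 lower in control NP, where 9.96% and 10.1% of all probe sets were. Sox10, Mag and Pmp2 had means at or under the negative controls in AF CTR. The part of Schwann cells in Kcna6 was not tested. Among K2P channels, Kcnk6, a dim gene, had a difference of -1.19 (SE 0.23). The call was kept under every alternative in which the gene was tested for 15 of the 26 genes, 7 higher and 8 lower in NP, and was lost under at least 1 for the other 11.

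**Figure D3:**
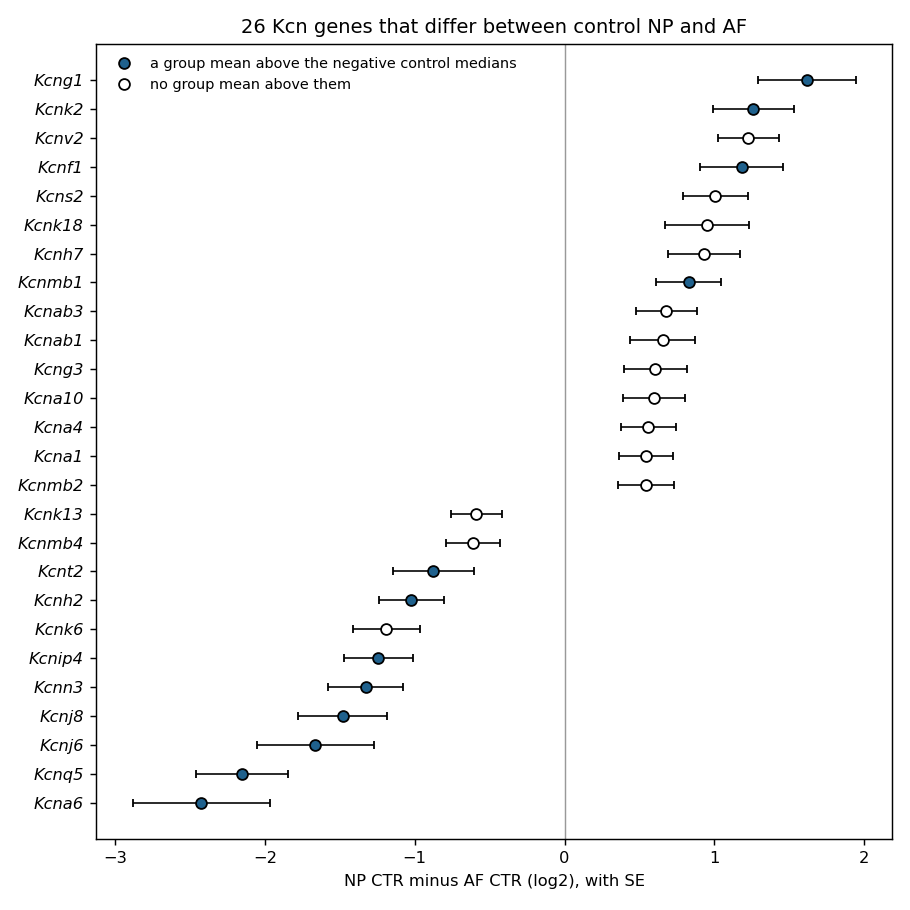
NP CTR minus AF CTR in log2 units (x axis) with its SE, for the 26 Kcn genes that passed the test (n = 4 arrays a group); filled points have a group mean over the negative control medians and open points have none. Differences run from -2.43 for Kcna6 to 1.62 for Kcng1, and 11 of the 15 genes higher in NP are open points.

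In AF, 2 more genes differed between genotypes at looser thresholds, without passing the main test. The thresholds named in the labels are a fold of 1.75 or more at an unadjusted p under 0.05. At these, 1 of 89 Kcn genes (1.12%) differed in NP, where 1.18% of all probe sets did. In AF 3 of 89 (3.37%) did, Kcnip3, Kcnn4 and Kcnj6, where 3.49% of all probe sets did. Both shares lie near those of all probe sets, so nothing is read from the counts. Kcnn4 encodes an intermediate-conductance calcium-activated channel known from red and white blood cells. It had 6.78, 8.05, 7.01 and 6.16 in AF cKO, against 5.13, 5.29, 5.82 and 5.72 in AF CTR, groups that did not overlap. The difference was 1.51 (SE 0.35), with a limma adjusted p of 0.133. Over the alternatives that p ran from 0.0286, without AF cKO replicate 4, to 0.432.

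Blood cell markers are given beside Kcnn4, although 0 of 10 neutrophil and 0 of 4 erythroid markers passed between genotypes in AF (limma), where 0.0991% of all probe sets did. The mean log2 signal of 10 neutrophil markers was 12.2, 12.2, 13.6 and 9.75 in AF cKO, against 11.8, 8.13, 6.55 and 7.39 in AF CTR. That of 4 erythroid markers was 8.05, 7.73, 8.82 and 6.65 in AF cKO, against 7.41, 6.18, 6.31 and 7.13 in AF CTR. Only these 4 of 9 listed erythroid markers were measured. Klf1 had a mean at or under the negative controls in AF cKO, and Epb42 and Klf1 did in AF CTR. AF CTR replicate 1 had a neutrophil mean within the range of the AF cKO arrays and the lowest Kcnn4 of the AF arrays (5.13). The neutrophil gene Prtn3 had a mean at or under the negative controls in AF cKO, and Ltf, Camp and Prtn3 did in AF CTR; both marker means peaked on AF cKO replicate 3 and Kcnn4 on replicate 2, and the part of blood cells in the Kcnn4 difference was not tested.

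Kcnj6 had 5.36, 5.11, 5.72 and 5.00 in AF cKO, against 5.76, 8.31, 6.08 and 6.97 in AF CTR. The groups touched without overlap, and the control arrays were spread over more than 2 log2 units (SD 1.14). The difference was -1.48 (SE 0.39), with a limma adjusted p of 0.175, and -0.97 without AF CTR replicate 2. Over the alternatives the limma adjusted p ran from 0.0287, without AF CTR replicate 1, to 0.494. In NP, Kcnj6 was 5.25 ± 0.20 in cKO and 5.12 ± 0.41 in CTR (n = 4 each), below the negative controls in both.

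**Figure D4:**
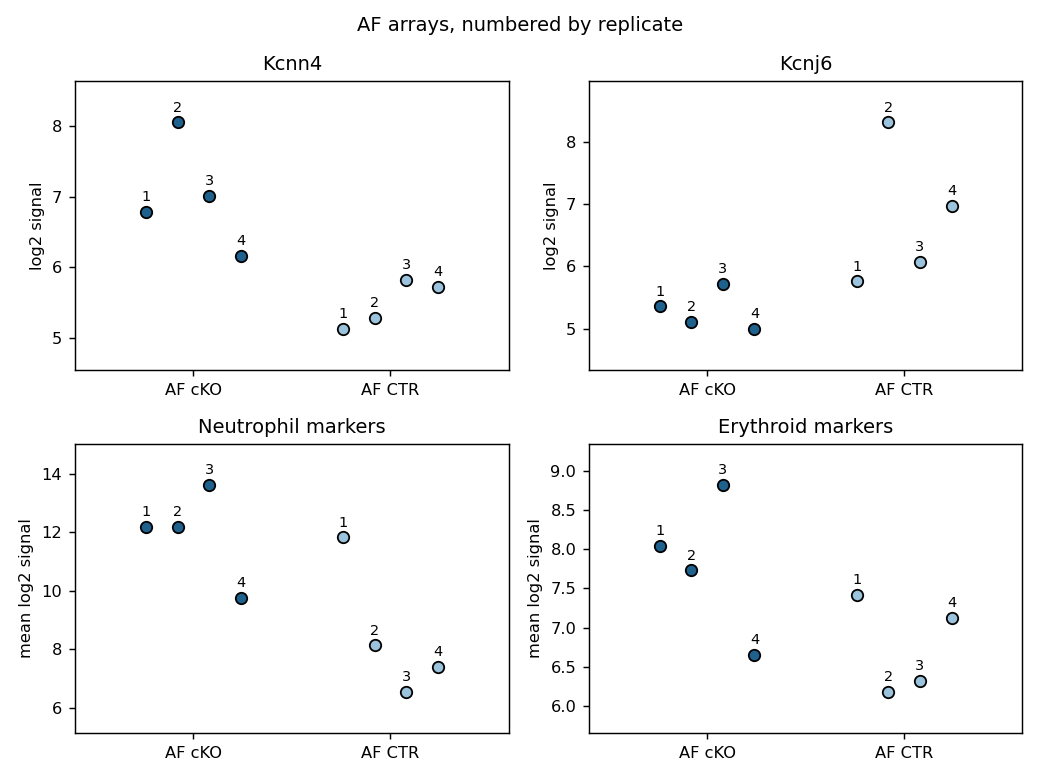
AF arrays numbered by replicate, AF cKO left of AF CTR: log2 signal of Kcnn4 and Kcnj6 (top, y axis) and mean log2 signal of 10 neutrophil and 4 erythroid markers (bottom, y axis). Kcnn4 is highest on AF cKO replicate 2 (8.05) and Kcnj6 on AF CTR replicate 2 (8.31), while both marker means are highest on AF cKO replicate 3 (13.6 and 8.82).

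Genes that work with potassium channels were read from 11 lists, of which 71 of 80 genes were measured. Between genotypes 0 of 71 passed in NP, in AF or for the difference of the changes, where 0.122%, 0.0991% and 0% of all probe sets did. Nearest to passing in AF was the pump regulator Fxyd3, with -1.76 (SE 0.34; limma adjusted p 0.0537). In NP it was the cotransporter Slc12a7, with -1.03 (SE 0.27; limma adjusted p 0.305). The genotypes did not overlap in either case. In control NP minus AF, 11 of 71 were higher and 8 lower, where 9.96% and 10.1% of all probe sets were. Among partners and targets of the Kcnip3 product (6 of 8 measured), Penk, the enkephalin precursor, averaged 4.77 ± 0.39 in NP CTR against 9.20 ± 1.15 in AF CTR, a difference of -4.44 (SE 0.44; limma adjusted p 1.2e-06). Its difference between genotypes was 0.50 (SE 0.44) in NP and 0.95 (SE 0.44) in AF, neither of which passed. Nr4a1 had the largest differences between genotypes of the 6, -1.62 (SE 0.84) in NP and -1.68 (SE 0.84) in AF. Neither passed (limma, unadjusted p 0.0703 and 0.0610), and the genotypes overlapped in both tissues. Prodynorphin (Pdyn), the classic target of DREAM, averaged 6.22 ± 0.35 in NP cKO and 6.36 ± 0.19 in NP CTR, and 6.19 ± 0.33 in AF cKO and 6.32 ± 0.63 in AF CTR, all below the highest negative control median.

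Among other calcium sensors related to KChIPs (8 of 9 measured), Vsnl1 was 1.15 higher in control NP (SE 0.26; limma adjusted p 0.00448), although dim. Among Na,K-ATPase and H,K-ATPase genes (13 of 17 measured), 2 were higher and 3 lower in NP, beside 9.96% and 10.1% of all probe sets: the beta subunit Atp1b2 was 1.75 higher (SE 0.39), and the difference was -2.31 (SE 0.23) for Fxyd1 and -2.33 (SE 0.34) for Fxyd3, regulators of the pump. Among cation-chloride cotransporters (6 of 7 measured), Slc12a2, which loads cells with sodium, potassium and chloride, was 1.82 higher (SE 0.34) and Slc12a7, a potassium-chloride exporter, 1.30 higher (SE 0.27). Of the kinases and ligases that act on channels and cotransporters (9 of 9 measured), 5 were higher and 3 lower in NP, with the same background of 9.96% and 10.1%. Stk39 was 1.82 higher (SE 0.34), and the NP minus AF difference was -2.08 (SE 0.21) for Wnk4 and -1.98 (SE 0.30) for Nedd4l. The volume-regulated anion channel subunit Lrrc8c had a difference of -1.70 (SE 0.25).

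The probe sets whose signal was most like that of Kcnip3 over the 16 arrays were Tubb2b (Pearson's r 0.914), Sox9 (0.910), S100b (0.904), Plekhb1 (0.899), Slc44a2 (0.896), Sppl2a (0.895), Mtmr10 (0.881), Cab39l (0.879), Map3k21 (0.871) and Meltf (0.866). The 16 arrays share 4 groups of genotype and tissue, and the correlations are a description with no p. Around the group means, the correlation with Kcnip3 was highest for Sppl2a (0.72) and lowest for Sox9 (-0.16) among these 10. It was 0.55 for Tubb2b, 0.53 for Slc44a2, 0.52 for Mtmr10, 0.48 for S100b and 0.47 for Meltf. For Map3k21, Cab39l and Plekhb1 it was 0.33, 0.32 and 0.10. None of the 10 is a Kcn gene.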

How the data were processed

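Per the labels, NP and AF were dissected from 8 mice, column-purified RNA was turned into biotin-labelled cDNA (GeneChip WT Plus). The deposited table holds log2 signals that the authors made with sst-RMA (per the labels); the submitters' processing notes name Transcriptome Analysis Console. Its version and the genome build are not given in the sources used here. Of 28846 probe sets, 6640 controls were left out and 22206 tested, unchanged. The arrays' medians were 6.66 to 6.89, and arrays of a group correlated at 0.963 to 0.983. The labels also name a detection threshold; the table holds no detection call, so none was used.

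Groups came from the labels, and replicate numbers from the animal codes in the titles. One fit of 4 group means on 16 arrays (limma 3.58.1, R 4.3.3, tested on simulated data) gave cKO minus CTR in NP and in AF, how far these changes differed, and control NP minus control AF, with Benjamini-Hochberg adjustment over all 22206 probe sets and calls under 0.05. Replicates are separate animals. NP and AF of 1 animal come from the titles; the deviations of the 2 tissues of an animal correlated at -0.293 to 0.348, over 0.1 in 3 of 8 animals, and the animal was a block only in an alternative. Alternatives were centring arrays on the median, quantile normalization again, dropping dim probe sets, keeping 1 probe set for each gene, weighting arrays, an intensity trend, fitting 8 arrays alone, 2 blocks, leaving out arrays and the labels' thresholds.

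A gene's probe set was the one with the highest mean over the 16 arrays; no Kcn gene had a second one. Genes are named where a group mean reached 8, where they passed the test, where they were the 3 nearest outside that level, or where they complete a complex; Kcnn4 and Kcnj6 were named because they were the remaining calls at the labels' thresholds, a choice made after their values were seen. Members and lists were chosen with earlier results of these data known.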

Additional observations from a re-analysis of the deposited data

Results flagged for a closer look

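Among 140 groups of 4 arrays (35 Kcn genes that were described, called or otherwise named), 6 held 1 array that stood far from the other 3, where chance gives about 1 in 20. The Kcnip4 signal was low on NP cKO replicate 2 (6.18, against 6.83 to 6.94 on the others). The Kcnn3 signal was high on AF cKO replicate 2 (7.15, against 6.64 to 6.71). The remaining flagged values belong to genes at or below the negative controls. They are the low Kcnk13 signal on AF CTR replicate 2 (6.26, against 6.66 to 6.69), the low Kcna4 signal on AF cKO replicate 2 (3.90, against 4.18 to 4.23), the low Kcnab3 signal on AF cKO replicate 3 (4.00, against 4.52), and the high Kcnmb2 signal on AF cKO replicate 4 (5.58, against 5.11 to 5.19).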

How the results depend on the processing

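The Kcnip3 difference ran from -3.61 to -3.21 in NP and from -3.23 to -2.62 in AF over the alternatives run, and the count of Kcn genes called in NP stayed at 1. In AF that count was 2 leaving out AF cKO replicate 3 with AF CTR replicate 1, where 112 of 22206 probe sets were called. It was 3 at the labels' thresholds, where 3.49% of all probe sets were. With single arrays left out it was 1 to 2, where 12 to 142 probe sets were called. For the difference of the changes it was 5 of 89 at the labels' thresholds. The share of all probe sets was not computed there, so nothing is read from that count. For NP minus AF in CTR it was 12 of 30 after the filter on dim probe sets, where 3300 of 13176 probe sets were called. It was 16 on the 8 arrays alone, where 3974 of 22206 were. Leaving out AF cKO replicate 3 with AF CTR replicate 1 it was 17, where 3581 were. With single arrays left out it was 18 to 25, where 3552 to 4160 were. With the animal as a replicate block it was 20, and with the replicate number as a block 27. The count rose to 32 with median centring, 31 with quantile normalization and 30 with an intensity trend. Median centring also moved the calls over all probe sets, from 2211 higher and 2251 lower in NP to 3293 higher and 1769 lower. Same-numbered animals of the 2 genotypes correlated at -0.275 to 0.208, and no paired fit changed the genotype counts. Small uncalled changes turned sign. Kcnip3 in NP minus AF was -0.10 leaving out AF cKO replicate 3 with AF CTR replicate 1, and -0.10 to 0.40 with single arrays left out. For Kcnq5 in NP it was -0.01 with median centring, -0.03 with quantile normalization, -0.04 with array weights, and -0.12 to 0.13 with single arrays left out; in AF -0.01 without AF cKO replicates 2 and 4, -0.31 leaving out AF cKO replicate 3 with AF CTR replicate 1, and -0.20 to 0.34; for the difference 0.02, 0.32, and -0.33 to 0.22. For Kcnk2 in AF it was -0.06 with quantile normalization, -0.04 with array weights and -0.09 to 0.18. For Kcnmb3 in AF it was 0.07 leaving out AF cKO replicate 3 with AF CTR replicate 1, and -0.32 to 0.02. For Kcng1 it was -0.09 to 0.47 in NP, and for the difference 0.05 without AF cKO replicates 2 and 4, and -0.41 to 0.15. For Kcnk10 it was -0.24 to 0.05 in NP, -0.16 to 0.03 in AF, and for the difference 0.02 with quantile normalization, 0.06 without AF cKO replicates 2 and 4, and -0.19 to 0.11. With single arrays left out, Kcnip4 in NP was -0.06 to 0.26, Kcnj6 in NP -0.05 to 0.28, and Kcnd2 -0.25 to 0.03 in NP and -0.05 to 0.17 in AF. The causes were not tested. A second probe set per gene could not be tried. Signal near the negative controls limits what 59 of the 89 genes can show.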
